A study of Homo sapiens with 8 samples.

Results

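The arrays described here are the 4 of 8 in the series that measured HepG2 cells at the later time: 2 arrays of cells exposed to benzo[a]pyrene (BaP) for 24 h and 2 arrays of cells that received the solvent dimethyl sulfoxide (DMSO) for 24 h. They were chosen by their titles, and every row with an Ensembl gene ID was analysed, 19002 in all. HepG2 is an established human cell line from a liver tumour, so all groups are 1 line grown in culture. Cells received fresh medium with the compound or the solvent at 80% confluence, and the solvent is given as 0.5% DMSO. No dose of BaP was found in the labels. Per the titles, the arrays within each group are biological replicates. The other 4 arrays, 2 of BaP for 12 h and 2 of DMSO for 12 h, share the statistical model and are used to ask where the later response differed from the earlier one.

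BaP is a polycyclic aromatic hydrocarbon of soot, tar and smoke. It binds the aryl hydrocarbon receptor (AHR), a transcription factor that pairs with ARNT and switches on genes of the CYP1 family, whose enzymes oxidise BaP itself. Some of the oxidised products bind DNA, and others cycle between quinone and hydroquinone forms and raise oxidative stress. DNA damage stabilises the transcription factor p53, and oxidative or electrophilic stress stabilises the transcription factor NRF2.

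The files and the gene tables used here do not pair Ensembl IDs with gene names. Names were therefore given from general knowledge of Ensembl IDs, only where the pair was held to be certain, and the ID is printed at the first array values of a gene so that each name can be checked. Of 580 pairs written, 551 IDs were in the table; 499 pairs were written for gene lists, and 81 were written for leading genes after their values had been seen. A partial check was possible for cell cycle genes: 78 of the 83 IDs written for replication and mitosis genes were in a cell cycle table of 1314 Ensembl IDs that is distributed with the R package scran, against 0 of the 34 IDs written for plasma proteins. IDs without a certain name are left unnamed.

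Values are log2 RMA expression, and differences are log2 fold changes, BaP minus DMSO, with limma's standard error (SE) and a p adjusted by the Benjamini-Hochberg method over all 19002 genes. A gene is said to have risen or fallen where its adjusted p was under 0.05. Medians of the 8 arrays lay between 6.64 and 6.68. The array of DMSO for 24 h, replicate 2, stood apart in the 18S ribosomal RNA control probe sets, with a mean of 11.3, against 12.6 to 13.1 on the other 7 arrays. The part of that array in each result below was not tested beyond leaving it out. Array data carry no count depth, and 2 arrays per group limit the precision. RMA gives all arrays 1 intensity distribution, so a change common to all transcripts is lost; scaling to the poly-A spike controls instead moved the median of all genes at 24 h to -0.11, against 0.01 in the values as deposited, and every change below is relative to the median of the array.

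At 24 h 1153 genes (6.07%) passed the threshold, of which 565 (2.97%) were higher and 588 (3.09%) were lower in BaP than in DMSO. The changes were mostly small: 32 genes were at least 2-fold higher and 18 at least 2-fold lower. The count depended on single arrays. Leaving out DMSO 24 h replicate 2 gave 396 genes, leaving out BaP 24 h replicate 2 gave 314, and leaving out BaP 24 h replicate 1 gave 507. With poly-A scaling 110 genes passed, 33 higher and 77 lower, in place of the nearly even split. Each of the 105 named genes past the threshold kept its sign with poly-A scaling, which could not have changed it. That scaling moves every log2 fold change at 24 h by 1 amount, the shift of the median from 0.01 to -0.11. The smallest change among the 105 was larger in size, -0.28 for HERPUD1. Leaving out 1 array cannot change the sign of a gene whose groups do not overlap, so those fits do not check it either. Both BaP arrays lay on 1 side of both DMSO arrays for 48.9% of all genes, so a lack of overlap alone says little about a gene.

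**Figure D1:**
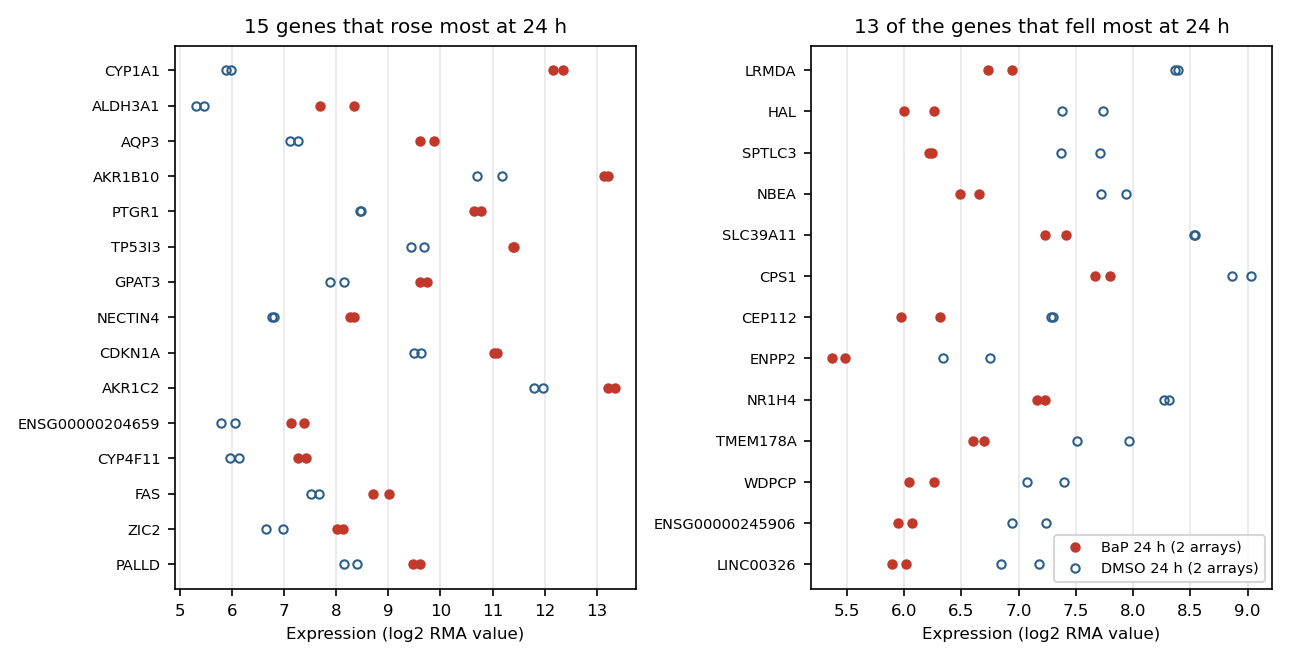
Expression at 24 h (log2 RMA value, horizontal axis) of the 15 genes that rose most and 13 of those that fell most. Filled red points are the 2 BaP arrays and open blue points the 2 DMSO arrays. A lack of overlap between the groups was a condition for entry, and it holds for 48.9% of all genes. CYP1A1 has by far the widest gap, 6.32 on the log2 scale.

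AHR target genes held the largest rise. CYP1A1 (ENSG00000140465), the oxidase that BaP induces and that in turn metabolises BaP, had values of 12.35 and 12.15 in the BaP arrays, against 5.88 and 5.99 in the DMSO arrays. The groups lay far apart and the log2 fold change was 6.32 ± 0.10 (SE), a 79.8-fold rise (limma, adjusted p = 1.76e-08). ALDH3A1 (ENSG00000108602), an aldehyde dehydrogenase of the same gene battery, had values of 8.34 and 7.68 with BaP, against 5.31 and 5.46 with DMSO. It rose by 2.62 ± 0.19 (adjusted p = 0.000315). AHRR (ENSG00000063438), the repressor that competes with AHR for its partner, had 6.85 and 6.45 with BaP, against 5.72 and 5.69 with DMSO. Its rise of 0.94 ± 0.20 passed with all arrays (adjusted p = 0.0273) and not when any of the 4 arrays at 24 h was left out, which gave log2 fold changes from 0.74 to 1.15.

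The promoters of the neighbouring genes CYP1A1 and CYP1A2 are shown because the pair differed widely in response. Capitals mark the core of the dioxin response element that AHR and ARNT bind, GCGTG, or its complement CACGC on the other strand; each line holds the 250 bases before the annotated start, from RefSeq on GRCh38.p14, read 5′ to 3′ on the gene's strand. The CYP1A1 stretch is chr15:74725529-74725778 on the minus strand, and the CYP1A2 stretch is chr15:74748595-74748844 on the plus strand.
CYP1A1: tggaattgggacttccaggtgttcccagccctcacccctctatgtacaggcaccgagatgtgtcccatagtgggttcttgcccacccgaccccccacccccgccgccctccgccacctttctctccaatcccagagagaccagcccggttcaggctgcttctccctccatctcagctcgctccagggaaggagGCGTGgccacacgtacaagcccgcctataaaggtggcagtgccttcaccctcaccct
CYP1A2: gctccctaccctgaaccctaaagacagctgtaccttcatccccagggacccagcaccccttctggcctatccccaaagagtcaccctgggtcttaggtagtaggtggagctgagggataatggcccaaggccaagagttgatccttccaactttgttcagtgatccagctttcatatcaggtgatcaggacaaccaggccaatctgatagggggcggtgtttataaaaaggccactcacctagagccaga
The core occurred 1 time in the CYP1A1 stretch and 0 times in the CYP1A2 stretch, while 32.2% of the 35116 promoter stretches in the table hold it on either strand. Among the 15 stretches listed for AHR targets, 53.3% hold it. That is a share of stretches and not of measured genes. TIPARP, AHRR, NFE2L2 and UGT1A6 have more than 1 stretch, UGT1A6 was not measured, and ALDH3A1 and CYP1B1 have none. AHRR, which rose, holds the core in each stretch, as do NFE2L2 and SLC7A5, which did not pass. LRAT did not pass and lacks it. The stretches of NQO1 and CYP2S1, which rose, hold it 0 times, and 1 of the 3 TIPARP stretches, a gene that did not pass, holds it 2 times. CYP1A2 (ENSG00000140505), which oxidises aromatic amines in liver, had 6.63 and 6.74 with BaP, against 6.04 and 6.16 with DMSO, a rise of 0.59 ± 0.08 (adjusted p = 0.00491). A short motif in a window of this length is a description and not a binding site.

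Of the 11 AHR targets measured, 6 rose (54.5%, against 2.97% of all genes) and 0 fell, with a median log2 fold change of 0.56, against 0.01 over all genes. The other risers were NQO1 (ENSG00000181019), the quinone reductase, with 13.65 and 13.63 in BaP arrays and 12.71 and 12.81 in DMSO arrays, and CYP2S1, which rose by 0.56 ± 0.11 (adjusted p = 0.0202). The remaining 5 did not pass. Among them were TIPARP, an ADP-ribosyltransferase that restrains AHR, at -0.06 ± 0.06 (adjusted p = 0.652), and CYP1B1 (ENSG00000138061), a sister oxidase, at 0.09 ± 0.10 (adjusted p = 0.701). CYP1B1 had values of 3.80 and 3.81 with BaP, against 3.75 and 3.68 with DMSO, below the level of 4.35 reached by a control transcript taken here as absent from the samples. Leaving out either BaP 24 h replicate 2 or DMSO 24 h replicate 2 left 4 AHR targets past the threshold.

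NRF2 targets, which make glutathione and reduce quinones and reactive aldehydes, rose together. Of 19 measured 11 were higher (57.9%, against 2.97% of all genes) and 0 lower, with a median of 0.53. AKR1B10 (ENSG00000198074), an aldo-keto reductase, had 13.22 and 13.13 in BaP arrays, against 10.71 and 11.18 in DMSO arrays. It rose by 2.23 ± 0.16 (adjusted p = 0.000308), which is 4.70-fold. AKR1C2 (ENSG00000151632) had 13.21 and 13.35 with BaP, against 11.79 and 11.97 with DMSO, a rise of 1.40 ± 0.11. AKR1C1 rose by 1.15 ± 0.10 and AKR1C3 by 0.38; the AKR1C genes are close in sequence, so probes may be shared between them. TXNRD1 (ENSG00000198431), thioredoxin reductase, had 12.29 and 12.31 with BaP and 11.28 and 11.48 with DMSO (log2 fold change 0.92 ± 0.09, adjusted p = 0.00112). Its partner TXN rose by 0.62. HMOX1, heme oxygenase, was at 0.13 ± 0.15 (adjusted p = 0.694) and the cystine transporter SLC7A11 at 0.53 ± 0.14 (adjusted p = 0.0619), so neither passed. Without BaP 24 h replicate 2 the count of NRF2 targets past the threshold was 7, and it was 11 without DMSO 24 h replicate 2.

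Of the p53 targets 21 of 31 measured were higher (67.7%, against 2.97% of all genes) and 1 was lower, with a median of 0.57. TP53I3 (ENSG00000115129), a quinone oxidoreductase homologue, had 11.42 and 11.39 in BaP arrays, against 9.68 and 9.43 in DMSO arrays, a rise of 1.84 ± 0.10 (adjusted p = 0.000105). CDKN1A (ENSG00000124762), the cyclin-dependent kinase inhibitor p21, had 11.03 and 11.08 with BaP, against 9.62 and 9.49 with DMSO. Its rise was 1.5 ± 0.07, or 2.83-fold (adjusted p = 3.34e-05). MDM2 (ENSG00000135679), the ubiquitin ligase that degrades p53, had 7.94 and 7.79 with BaP, against 6.80 and 6.87 with DMSO, a rise of 1.03 ± 0.07 (adjusted p = 0.000315). FDXR (ENSG00000161513), ferredoxin reductase of mitochondria, rose by 1.17 ± 0.07 and TIGAR (ENSG00000078237), a regulator of glycolysis, by 1.16 ± 0.08. In all 5 genes, which were taken by their change, the BaP and DMSO arrays did not overlap, as in 48.9% of all genes. The member that fell was CCNG2, an unconventional cyclin, at -0.51. Leaving out BaP 24 h replicate 2 left 15 p53 targets past the threshold, and leaving out DMSO 24 h replicate 2 left 20. With poly-A scaling 6 p53, 3 NRF2 and 2 AHR targets passed, all higher in BaP, and the medians were 0.46, 0.41 and 0.44. The p53, AHR and NRF2 genes gave the 3 highest medians in the plot of gene lists.

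**Figure D2:**
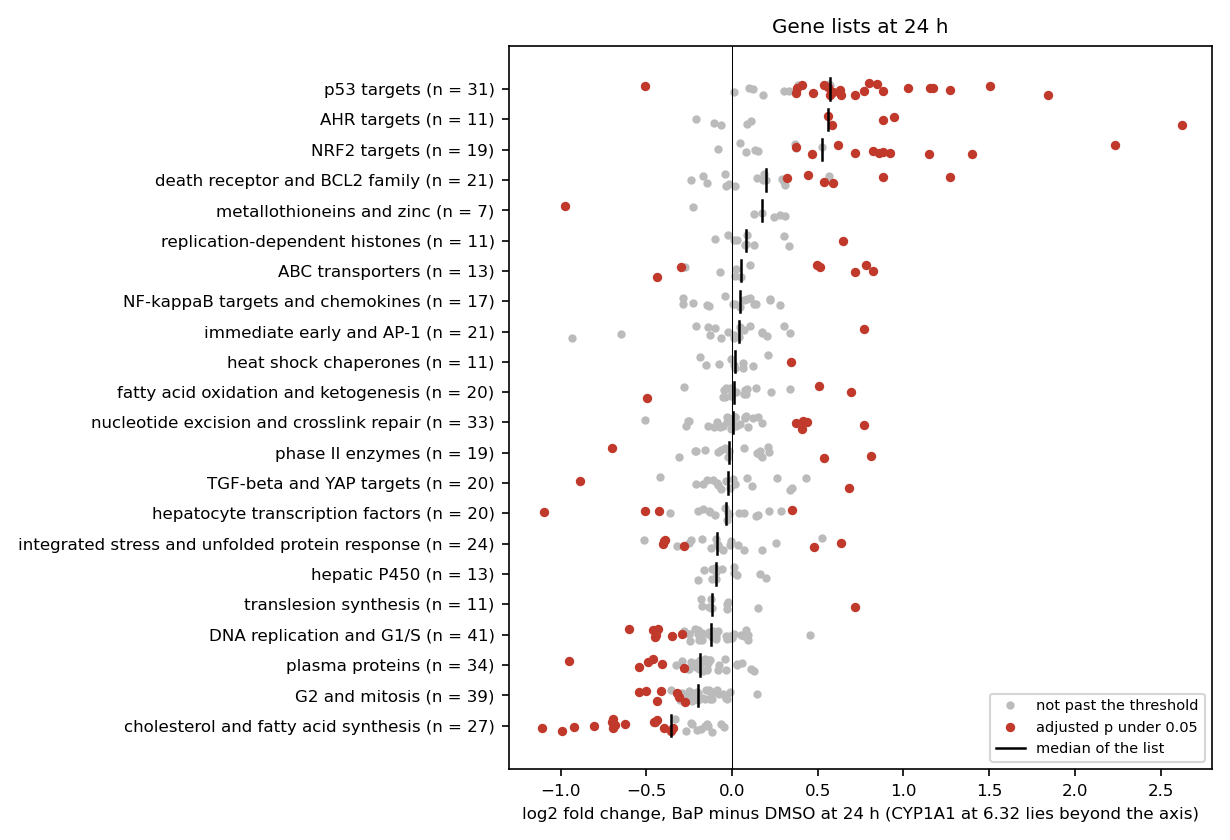
Log2 fold change at 24 h (BaP minus DMSO, horizontal axis) of each measured member of 22 gene lists, ordered by list median. Some genes are in more than 1 list. Red points passed an adjusted p of 0.05, grey points did not, and the black bar is the median; p53, AHR and NRF2 targets sit at the top with medians of 0.57, 0.56 and 0.53, and cholesterol and fatty acid synthesis at the bottom with -0.36.

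Among genes of cell death, 6 of 21 measured rose (28.6%, against 2.97% of all genes) and 0 fell (median 0.20). FAS (ENSG00000026103), the cell surface receptor for FAS ligand, rose most. It had 9.01 and 8.71 with BaP, against 7.67 and 7.51 with DMSO, a rise of 1.27 ± 0.11 (adjusted p = 0.000617). PMAIP1, also called NOXA, a BH3-only protein that antagonises MCL1, rose by 0.88 ± 0.10 (adjusted p = 0.00228). The TRAIL receptors TNFRSF10A and TNFRSF10B rose by 0.59 and 0.54. BCL2L1, which encodes the anti-apoptotic BCL-XL, rose by 0.45 (adjusted p = 0.0452). BAX was at 0.57 and BBC3 at 0.31, and neither passed. Leaving out BaP 24 h replicate 2 left 3 of them past the threshold, and each of the other arrays at 24 h left 4. The gene lists share members, so their counts are not separate findings. FAS is also among the p53 targets, and DDB2 and XPC are in the p53 and repair lists. NQO1 is in the AHR and NRF2 lists, and ABCC2 and ABCC3 are in the NRF2 and ABC transporter lists.

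Of 33 genes of nucleotide excision and crosslink repair, 5 rose (15.2%, against 2.97% of all genes) and 0 fell. The median was 0.01, equal to that of all genes. DDB2 (ENSG00000134574), which recognises damaged bases in chromatin and is itself a p53 target, had 10.33 and 10.30 in BaP arrays, against 9.56 and 9.53 in DMSO arrays (log2 fold change 0.77 ± 0.07, adjusted p = 0.000839). XPC, its partner in damage recognition, rose by 0.41 and RAD51C by 0.44. ERCC1, a subunit of the excision nuclease, rose by 0.38. The polymerase POLH, which copies past bulky lesions, rose by 0.72 ± 0.09 (adjusted p = 0.00415). It was the 1 member of 11 translesion genes to pass (9.09%, against 2.97% of all genes). Without BaP 24 h replicate 2, or without DMSO 24 h replicate 2, the repair count was 1; with poly-A scaling it was 0 by limma (2 at an unadjusted p under 0.05).

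Genes of the cell cycle were slightly lower. Of 41 replication and G1/S genes 7 fell (17.1%, against 3.09% of all genes), 0 rose and the median was -0.12. The 7 were MCM2, MCM3, MCM5 and MCM6 of the replicative helicase, GINS1 and GINS2 that join it, and POLA1, the catalytic subunit of polymerase alpha. MCM2 (ENSG00000073111) had 10.38 and 10.40 with BaP, against 11.02 and 10.97 with DMSO, a fall to 1.52-fold lower in BaP (log2 fold change -0.60 ± 0.07, adjusted p = 0.00345). Of 39 genes of G2 and mitosis 7 fell (17.9%, against 3.09% of all genes) and 0 rose. A negative value was found for 38 of the 39, with a median of -0.20. ANLN, anillin of the cleavage furrow, was at -0.54 ± 0.13 (adjusted p = 0.0435), the spindle motor KIF11 at -0.50 ± 0.09 (adjusted p = 0.0167), and cyclin A2 (CCNA2) at -0.32 ± 0.07 (adjusted p = 0.0369). MKI67, the proliferation marker Ki-67, was at -0.15 and did not pass. These counts rested on few arrays. Without BaP 24 h replicate 2 the replication count was 2 and the mitosis count 0, without BaP 24 h replicate 1 they were 3 and 2, and without DMSO 24 h replicate 2 they were 4 and 0. Those 2 mitosis counts of 0 by limma stand beside 17 and 14 genes at an unadjusted p under 0.05. With poly-A scaling both counts were 0 by limma, with 5 genes of each list at an unadjusted p under 0.05. Leaving out an array at 12 h, which alters only the estimate of the spread, left 2 or 3 mitosis genes. Of 11 replication-dependent histone genes H1-2 alone passed, higher in BaP (0.65 ± 0.13), which is 9.09%, against 2.97% of all genes. In bulk RNA fewer dividing cells and less RNA per cell cannot be told apart.

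Of the lists, cholesterol and fatty acid synthesis had the lowest median. Of 27 genes measured 15 fell, 12 did not pass, 0 rose and all 27 had a negative value, with a median of -0.36; the share that fell, 55.6%, stands beside 3.09% of all genes. HMGCS1 (ENSG00000112972), an early enzyme of the mevalonate pathway, had 7.81 and 7.40 with BaP, against 8.53 and 8.52 with DMSO, a log2 fold change of -0.92 ± 0.13 (adjusted p = 0.00518). STARD4 (ENSG00000164211), a carrier of cholesterol between membranes, had 9.10 and 8.87 with BaP, against 9.75 and 9.82 with DMSO (-0.80 ± 0.09). The enzymes SQLE, LSS, MSMO1, IDI1 and DHCR7 fell by between 0.62 and 0.70.

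The values within that list were uneven. SREBF1, a transcription factor of lipid synthesis, fell by 0.44, and the desaturase SCD and the carboxylase ACACA by 0.40 and 0.36. INSIG1, which holds SREBP factors back and is itself a target of them, was at -0.05 and did not pass. FASN, fatty acid synthase, was at -0.21 and did not pass. At 12 h 7 of the 27 genes had fallen and the median was -0.18. In the test of the difference between times 1 of the 27 passed, lower at 24 h, as did 0.132% of all genes. HMGCS1, STARD4, LSS and MSMO1 did not pass that test (limma, adjusted p from 0.07 to 0.529). The count at 24 h was 9 without BaP 24 h replicate 2, 12 without DMSO 24 h replicate 2, and 4 with poly-A scaling. Of 20 genes of fatty acid oxidation 2 rose (10%, against 2.97% of all genes) and 1 fell (5%, against 3.09% of all genes). CPT1A, the gate of mitochondrial fatty acid import, rose by 0.69 ± 0.08 (adjusted p = 0.00305), and ACADVL by 0.51.

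**Figure D3:**
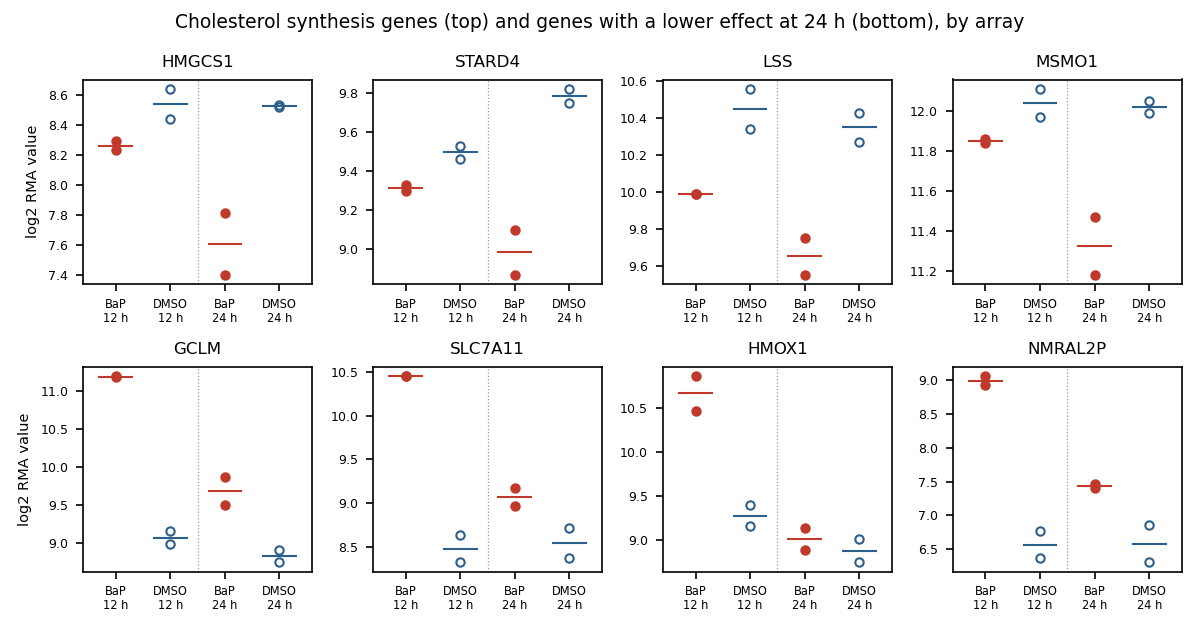
Log2 RMA value (vertical axis, a separate scale for each gene) on each of the 8 arrays, ordered BaP 12 h, DMSO 12 h, BaP 24 h and DMSO 24 h; points are arrays and bars are means of 2. The upper row shows 4 genes of cholesterol supply, lower in BaP at 24 h, with HMGCS1 at a log2 fold change of -0.92; the lower row shows 4 genes whose rise with BaP was larger at 12 h than at 24 h, such as HMOX1, at 1.39 and 0.13.

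Genes of liver function were partly lower. Of 34 plasma protein genes 6 fell (17.6%, against 3.09% of all genes) and 0 rose (median -0.19). APOC3 (ENSG00000110245), an apolipoprotein of triglyceride-rich particles, had 6.98 and 6.91 with BaP, against 7.84 and 7.95 with DMSO, a log2 fold change of -0.95 ± 0.10 (adjusted p = 0.00205). KNG1, ITIH1, FGA, HPX and F7 fell by 0.28 to 0.54. ALB (ENSG00000163631), serum albumin, had 13.16 and 13.10 with BaP, against 13.28 and 13.29 with DMSO, and did not pass (-0.15 ± 0.07, adjusted p = 0.275). Leaving out BaP 24 h replicate 2 left 2 plasma protein genes past the threshold, and leaving out BaP 24 h replicate 1 or DMSO 24 h replicate 2 left 3. Of 20 hepatocyte transcription factors 3 fell (15%, against 3.09% of all genes) and 1 rose (5%, against 2.97% of all genes). NR1H4 (ENSG00000012504), the bile acid receptor FXR, had 7.23 and 7.16 with BaP, against 8.27 and 8.31 with DMSO, and fell to 2.14-fold lower in BaP (adjusted p = 0.000159). FOXA3 and CEBPA were at -0.51 and -0.43, and NR1I2, the xenobiotic receptor PXR, was at 0.35. HNF4A, at 0.14, did not pass. Without BaP 24 h replicate 1 or DMSO 24 h replicate 2 the count was 1, and without BaP 24 h replicate 2 it was 2.

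A pair of enzymes of nitrogen metabolism were among the genes that fell most. CPS1 (ENSG00000021826), which starts the urea cycle, had 7.80 and 7.67 in BaP arrays, against 8.86 and 9.03 in DMSO arrays (-1.21 ± 0.08, adjusted p = 0.000308). HAL (ENSG00000084110), which starts histidine breakdown, had 6.26 and 6.0 with BaP, against 7.38 and 7.74 with DMSO (-1.44 ± 0.14, adjusted p = 0.00124). Of the other P450 genes of liver 0 of 13 passed with limma (1 at an unadjusted p under 0.05), and their values ran from -0.20 to 0.20. Most of them are dim: 3 of the 13 were brighter than the median gene and 11 were above the control level of 4.35. A lack of change in dim genes says little. CYP3A4 was at -0.06 and CYP2E1 at -0.09. CYP4F11 (ENSG00000171903), a fatty acid hydroxylase outside that list, had 7.26 and 7.42 with BaP, against 5.97 and 6.14 with DMSO (1.29 ± 0.12, adjusted p = 0.00105).

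Among transporters and conjugating enzymes some genes rose and some fell. Of 13 ABC transporters 5 rose (38.5%, against 2.97% of all genes) and 2 fell (15.4%, against 3.09% of all genes). The efflux pumps ABCC2 (0.82 ± 0.12), ABCG2 (0.78 ± 0.13), ABCC3 (0.72 ± 0.10), ABCC1 (0.51 ± 0.07) and ABCB1 (0.49 ± 0.08) rose, with adjusted p from 0.00508 to 0.0119. ABCB4, the phospholipid floppase of bile, and ABCC6 were lower, at -0.44 and -0.30. Leaving out BaP 24 h replicate 2 left 2 genes of this list past the threshold, and poly-A scaling left 0 by limma (4 at an unadjusted p under 0.05). Of 19 phase II enzymes 2 rose (10.5%, against 2.97% of all genes) and 1 fell (5.26%, against 3.09% of all genes). EPHX1 (ENSG00000143819), the epoxide hydrolase that acts on BaP epoxides, had 8.32 and 8.39 with BaP, against 7.61 and 7.49 with DMSO (0.81 ± 0.11, adjusted p = 0.00518). MGST1, a membrane glutathione transferase, rose by 0.54 and EPHX2, the soluble epoxide hydrolase of lipids, was at -0.70 ± 0.10.

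Among genes of stress and inflammatory programmes the counts differed by list. Of 24 genes of the integrated stress and unfolded protein responses 2 rose (8.33%, against 2.97% of all genes) and 4 fell (16.7%, against 3.09% of all genes). SESN2, also a p53 target, rose by 0.63 and DNAJC3 by 0.48. HSPA5, the chaperone BiP, was at -0.39 ± 0.08 (adjusted p = 0.0242), with PDIA4, DDIT4 and HERPUD1 at -0.40, -0.40 and -0.28. That count was 1 without BaP 24 h replicate 1 or DMSO 24 h replicate 2, 2 without BaP 24 h replicate 2, and 3 without BaP 12 h replicate 1 or BaP 12 h replicate 2. Among 21 immediate early and AP-1 genes FOSL1 alone passed (4.76%, against 2.97% of all genes), at 0.77 ± 0.09 (adjusted p = 0.00281). The lowest value in that list was -0.935, which did not pass. Of 17 NF-kappaB targets 0 passed with limma (5 at an unadjusted p under 0.05). Among 11 heat shock chaperones HSPH1 alone passed (9.09%, against 2.97% of all genes). It was at 0.34 (adjusted p = 0.0434), and it was lost without any 1 of the 8 arrays. Of 20 TGF-beta and YAP targets 1 rose (5%, against 2.97% of all genes) and 1 fell (5%, against 3.09% of all genes). INHBE, a hepatic activin subunit, was the gene that fell, at -0.89. Of 7 metallothionein and zinc genes the transporter SLC30A10 alone passed (14.3% lower, against 3.09% of all genes), at -0.98 ± 0.11 (adjusted p = 0.00235). Leaving out BaP 24 h replicate 2 left 1 TGF-beta or YAP target past the threshold.

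Several of the largest changes lay outside these lists. AQP3 (ENSG00000165272), a channel for water and glycerol, had 9.61 and 9.88 with BaP, against 7.11 and 7.26 with DMSO. It rose by 2.56 ± 0.11, or 5.91-fold (adjusted p = 2.48e-05). PTGR1 (ENSG00000106853), a reductase of prostaglandins and reactive alkenals, had 10.78 and 10.64 with BaP, against 8.46 and 8.48 with DMSO (2.23 ± 0.09, adjusted p = 1.59e-05). GPAT3 (ENSG00000138678), an acyltransferase of triglyceride synthesis, had 9.60 and 9.74 with BaP, against 7.89 and 8.15 with DMSO (1.65 ± 0.11). NECTIN4 (ENSG00000143217), a cell adhesion protein, rose by 1.52 ± 0.07, ZIC2 (ENSG00000043355), a zinc finger transcription factor, by 1.27 ± 0.11, and PALLD (ENSG00000129116), an actin-binding protein, by 1.26 ± 0.09. ENSG00000204659, left unnamed, rose by 1.35 ± 0.12.

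Among the genes that fell, LRMDA (ENSG00000148655), known from melanocyte differentiation, had 6.94 and 6.73 with BaP, against 8.37 and 8.39 with DMSO (-1.54 ± 0.08, adjusted p = 6.66e-05). SPTLC3 (ENSG00000172296), a subunit of the enzyme that starts sphingolipid synthesis, had 6.22 and 6.24 with BaP, against 7.37 and 7.71 with DMSO (-1.31 ± 0.11). NBEA (ENSG00000172915), a membrane trafficking protein, had 6.65 and 6.49 with BaP, against 7.72 and 7.94 with DMSO (-1.26 ± 0.10). The zinc transporter SLC39A11 (ENSG00000133195), the centrosomal protein CEP112 (ENSG00000154240), ENPP2 (ENSG00000136960), which makes lysophosphatidic acid, TMEM178A (ENSG00000152154) and WDPCP (ENSG00000143951), a protein of cilia, lay between -1.09 and -1.21. WDPCP did not pass without BaP 24 h replicate 2 (adjusted p = 0.0645) or DMSO 24 h replicate 2 (adjusted p = 0.0639). The non-coding LINC00326 (ENSG00000231023) was at -1.06 and the unnamed ENSG00000245906 at -1.08.

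Many of the genes that fell most are long. Among the 50 genes of lowest log2 fold change that passed the threshold, 47 had a name and a span in RefSeq, and the median span was 160.0 kb, from 2.7 kb (INHBE) to 1504.2 kb (FHIT); 22 of the 47, or 46.8%, exceeded 200 kb. Among the 50 that rose most, 47 had a span, the median was 18.7 kb and 1 gene, PALLD at 431.4 kb, exceeded 200 kb (2.13%). The median over 20056 protein-coding genes of RefSeq was 24.1 kb, with 6.98% over 200 kb. LRMDA spans 1128.5 kb, NBEA 730.5 kb, WDPCP 721.3 kb and CEP112 556.6 kb. The short members of the group that fell include HMGCS1 at 25.9 kb and APOC3 at 3.2 kb. The spans are a description without a test: the genes were taken by their change, and 3 genes in each set of 50 had no span here.

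**Figure D4:**
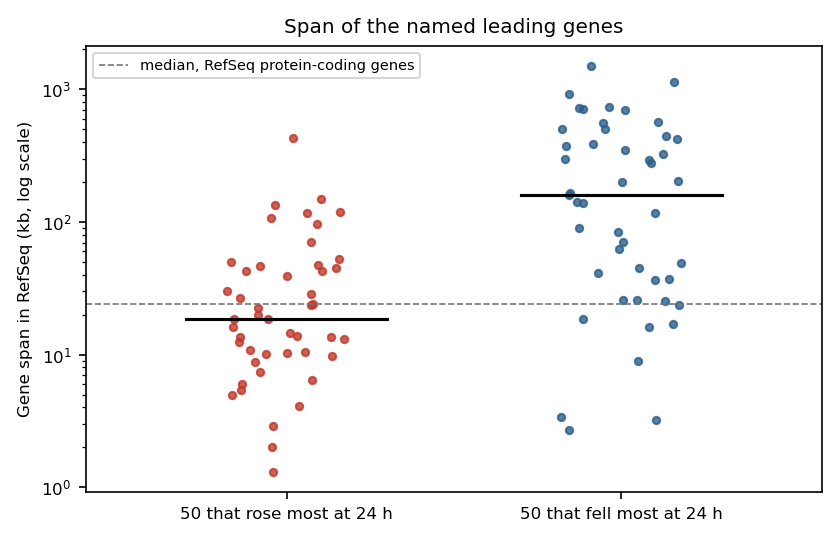
Span in RefSeq of the named genes among the 50 that rose most (left, 47 genes) and the 50 that fell most (right, 47 genes) at 24 h, on a log scale in kb. Points are genes and black bars are medians, 18.7 kb and 160.0 kb; the dashed line is the median of protein-coding genes, 24.1 kb.

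The later response was then set beside the response at 12 h, where 1571 genes (8.27%) passed, 645 higher (3.39%) and 926 lower (4.87%). Of the 565 genes higher at 24 h, 223 were also higher at 12 h, 335 did not pass there and 7 were lower there. Of the 588 lower at 24 h, 283 were also lower at 12 h, 305 did not pass there and 0 were higher there. The difference between the effects at 24 h and 12 h passed its own test for 122 genes (0.642%), 97 of them (0.51%) positive and 25 (0.132%) negative. CYP1A1 had log2 fold changes of 6.55 at 12 h and 6.32 at 24 h (difference -0.23 ± 0.15, adjusted p = 0.545). CDKN1A was at 1.62 at 12 h and 1.5 at 24 h, and that difference did not pass (adjusted p = 0.67). AQP3 rose by 1.56 at 12 h and 2.56 at 24 h (difference 1.01, adjusted p = 0.0337). Whether that difference passes with 1 array left out was not examined for AQP3.

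**Figure D5:**
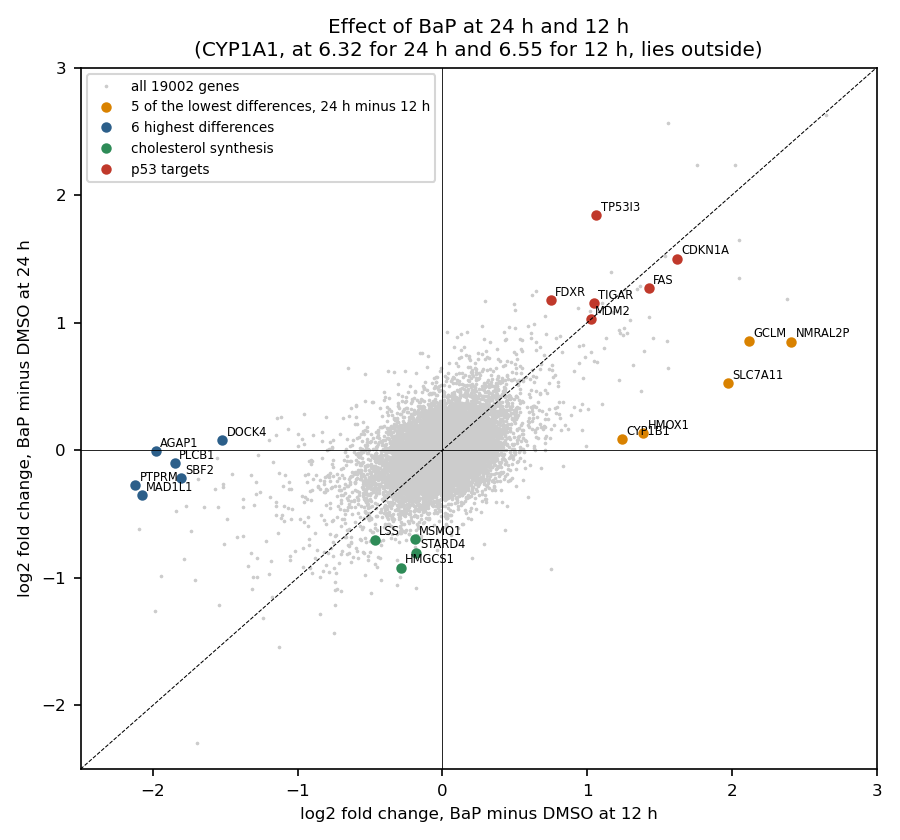
Log2 fold change with BaP at 12 h (horizontal axis) against that at 24 h (vertical axis) for 19002 genes in grey, with named genes coloured; the dashed line marks equal effects. AGAP1, PTPRM, PLCB1, MAD1L1, DOCK4 and SBF2 lie at the left near 0 on the vertical axis, and HMOX1 and CYP1B1 lie at the right near 0. The cholesterol genes shown lie below the line, but their differences between times did not pass.

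The 6 genes with the highest differences had fallen at 12 h and lay near the DMSO level at 24 h, where MAD1L1 alone among them still passed (adjusted p = 0.0426). That call at 24 h was lost when any of 7 of the 8 arrays was left out, and with poly-A scaling. AGAP1 (ENSG00000157985), a regulator of ARF trafficking GTPases, had 8.56 and 8.70 in BaP arrays at 24 h, against 8.68 and 8.6 in DMSO arrays, with full overlap. Its log2 fold changes were -1.98 at 12 h and -0.01 at 24 h, a difference of 1.98 (adjusted p = 0.00109). PTPRM (ENSG00000173482), a receptor tyrosine phosphatase, was at -2.12 at 12 h and -0.27 at 24 h, and MAD1L1 (ENSG00000002822), a spindle checkpoint protein, at -2.08 and -0.35. PLCB1, a phospholipase of G protein signalling, DOCK4, an activator of RAC, and SBF2, a relative of myotubularins, had differences of 1.74, 1.6 and 1.59. The spans of these 6 genes run from 417.2 kb to 839.5 kb. AGAP1, PTPRM and MAD1L1 passed the test of the difference whichever array was left out, and the other 3 were each lost without 1 of the 8 arrays.

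Genes among the 6 with the lowest differences had risen at 12 h. GCLM (ENSG00000023909), a subunit of the enzyme that limits glutathione synthesis, had 9.86 and 9.50 in BaP arrays at 24 h, against 8.74 and 8.90 in DMSO arrays, with log2 fold changes of 2.1 at 12 h and 0.85 at 24 h. HMOX1 (ENSG00000100292) was at 1.39 and 0.13, and SLC7A11 (ENSG00000151012) at 1.98 and 0.53. The pseudogene NMRAL2P (ENSG00000171658) was at 2.41 and 0.85. CYP1B1 was at 1.24 and 0.09. In the test of the difference GCLM, SLC7A11 and CYP1B1 were each lost without any of 5 of the 8 arrays, and HMOX1 and NMRAL2P without any of 7. For other NRF2 targets the difference did not pass: AKR1B10 was at 2.02 at 12 h and 2.23 at 24 h, and NQO1 at 0.79 and 0.88.

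The markers of the cell line were bright. The 10 HepG2 and hepatocyte markers, albumin, AFP and GPC3 among them, had means from 11.1 to 14.3 on the log2 scale. With limma 0 of 10 passed (4 at an unadjusted p under 0.05), with 10 of 10 negative and a median of -0.19. Of 8 leukocyte markers 0 passed (1 at an unadjusted p under 0.05); PTPRC, which defines leukocytes, had values of 3.40 and 3.41 with BaP and 3.38 and 3.31 with DMSO, while LYZ was bright, at 13.5 in both groups. Of 5 endothelial markers 0 passed (1 at an unadjusted p under 0.05). Of 7 stromal markers ACTA2, smooth muscle actin and a gene that epithelial cells can also express, rose by 0.85 ± 0.07 (adjusted p = 0.000428), while the other 6 did not pass (limma). That is 14.3% of the 7, against 2.97% of all genes. Of those 6, COL3A1, LUM and COL1A2 lay between 3.17 and 4.29 on the arrays at 24 h, DCN between 5.04 and 5.16, COL1A1 between 6.05 and 6.20 and PDGFRB between 7.30 and 7.58. The part of these markers in the other results was not tested.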

How the data were processed

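The authors deposited log2 expression values that, per the submitters' processing notes, come from RMA under R 2.12.2, and a table with limma p-values per gene and time, per the file headers; the latter was used as an alternative. Labelled cRNA came from 250 ng total RNA per the labels' protocols; the probe annotation and genome build are not given in the sources used here. Here limma (3.58.1, R 4.3.3) was fitted to all 8 arrays with a mean per group, 4 residual degrees of freedom and no filter, and p-values were adjusted over 19002 genes. The p-values measure only the spread between these arrays. The script was tested on simulated data.

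The time, members and gene lists were chosen with earlier results of these data known. The written rule named the 15 highest and 15 lowest called genes whose groups do not overlap, the 6 highest and 6 lowest differences between times, up to 6 called members of each list and 11 genes in any case. It had taken symbols only from tables supplied with the data. No such table pairs these IDs, and that clause was set aside after the files were seen: names are recalled, as the report states. Some genes that the rule names are not reported here. GDF15 was not among the measured named IDs. Genes named outside the rule are list members given as examples, chosen after their values were seen.

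Replicate numbers were not used as a block in the fit reported, and the closing section gives that fit. Alternatives were the replicate block, each array left out, 1 time alone, 2 filters on dim genes, median centring, cyclic loess, other moderation, array weights, stricter thresholds and, added after seeing the data, poly-A scaling.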

Additional observations from a re-analysis of the deposited data

Results flagged for a closer look

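By limma's test of the difference, 122 genes responded to BaP differently at 24 h than at 12 h. Differences are log2 fold change at 24 h minus that at 12 h. They were positive for AGAP1 (1.98), PTPRM (1.85), PLCB1 (1.74), MAD1L1 (1.72), DOCK4 (1.6), SBF2 (1.59) and AQP3 (1.01). They were negative for NMRAL2P (-1.56), SLC7A11 (-1.45), GCLM (-1.26), HMOX1 (-1.25) and CYP1B1 (-1.16).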

How the results depend on the processing

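Of the 105 named genes past the threshold at 24 h, all kept their sign under each refit, but few refits could have changed it. The replicate block, a trended or robust prior, array weights and the arrays at 24 h alone return the same log2 fold changes. Median centring and poly-A scaling move all genes by 1 amount, smaller than any of these 105 changes. Where the groups of a gene do not overlap, leaving out 1 array cannot change its sign. With the replicate block, cyclic loess, median centring, a trended or a robust prior, 104 or 105 stayed past the threshold. Fewer stayed past it with array weights (92), the arrays at 24 h alone (80) and poly-A scaling (41). Without 1 array 63 to 94 did; the lowest, 63, left out BaP 24 h replicate 2, and leaving out DMSO 24 h replicate 2 gave 72. Without 1 array, 314 to 1000 genes passed at 24 h, 614 to 1548 at 12 h and 31 to 88 for the difference between times. The arrays at 24 h alone gave 569. Testing only genes brighter than the median gene gave 1740 at 24 h and 480 for the difference, and a trended prior gave 325 for the difference. An adjusted p under 0.01 left 353, 658 and 31, and a fold of at least 1.5 left 292 at 24 h and 428 at 12 h. Poly-A scaling, chosen after seeing the data, gave 110 at 24 h (30.0% higher, against 49.0% as deposited), 2011 at 12 h (97.0% higher, against 41.1%) and 22 for the difference (4.55% higher, against 79.5%). It left 1 gene past the threshold in each of the plasma protein, hepatocyte factor and cell death lists. Its medians of all genes were 0.47 at 12 h and -0.11 at 24 h. With the replicate number as a block, 1297 genes passed at 24 h, 1679 at 12 h and 151 for the difference, and 1084 of the 1153 remained. Whether the numbers pair the arrays is unsettled. The headers of the deposited table give every group the same labels, Ex2 and Ex3, with no meaning stated. Deviations of same-numbered arrays correlated at -0.048 between BaP and DMSO at 24 h and at 0.101 to 0.14 between the other groups. With 2 arrays a group, small changes depend on each array; the cause was not tested.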
